A study of Mus musculus with 6 samples.

Results

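The LIM domain only (LMO) family and the core of the nuclear complex that is built on LDB1 were examined in epididymal white adipose tissue (eWAT) of obese mice that had received Lmo3 by viral transfer. The 9 genes were taken by name: Lmo1, Lmo2, Lmo3, Lmo4, the adaptors Ldb1 and Ldb2, and the DNA-binding partners Tal1, Lyl1 and Gata2. Each had 1 probe set with its symbol, out of 19938 genes with a probe set of their own, and 8 of the 9 lay above the limit for dim genes and were tested with 11963 genes in all.

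LMO proteins consist of little more than a pair of LIM zinc-finger domains and do not bind DNA themselves. In blood progenitors and endothelium, LMO2 joins a TAL1 or LYL1 dimer with an E protein to a GATA factor, and LDB1 dimerises to hold such complexes together. GATA2 is known in fat as a factor of preadipocytes that opposes PPARγ and adipogenesis, and LMO3 is known from human visceral adipocytes.

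All mice were male C57BL6/J that went on a high-fat diet at 6 weeks of age and stayed on it for 12 weeks. Their eWAT was transduced by a recombinant adeno-associated virus (rAAV) of serotype Rec2. According to the methods this was done after the diet had begun, so the time with the virus was shorter than that on the diet. The control group (rAAV-YFP) received yellow fluorescent protein and the other group (rAAV-Lmo3) received Lmo3, each from a cassette with the CMV enhancer and the CBA promoter according to the methods. The treatment protocol in the labels names LacZ as control, and the name in the titles was kept. There were 3 arrays per group, each carrying a pool of 2 mice.

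Values are RMA intensities, a summary of the brightness of the probes of a gene, or their log2. Differences are log2 values of rAAV-Lmo3 less those of rAAV-YFP. Each probe set has its own brightness, so an order of intensities between genes is an order of probe sets and not of transcript amounts. The arrays rAAV-YFP 2 and rAAV-Lmo3 1 stood apart: they correlated with the rest at 0.988 and 0.986 on average, and the other 4 at 0.990 to 0.991. Of 10 adipocyte markers 9 were measured and all of these were tested, with Lpl the brightest, and the 7 measured markers of epididymal duct epithelium all lay under the limit for dim genes. The number of arrays limits the precision, and an exact permutation test of 3 against 3 cannot give a p below 0.1.

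None of the 8 tested genes passed. By limma (moderated test, two-sided), 0 of 8 reached an unadjusted p under 0.05, and their p-values lay between 0.141 for Lmo2 and 0.951 for Gata2, with adjusted p-values between 0.970 and 0.996. Over all genes tested 4.66% passed at the unadjusted level (2.27% higher and 2.4% lower) and 0 after Benjamini-Hochberg adjustment. The groups overlapped for all 9 genes, whereas they did not overlap for 10.5% of all genes tested (4.53% higher and 5.95% lower). Against backgrounds of this size a count of 0 among 8 genes does not set the complex apart from the other genes. Of the 8 differences 3 lay above 0 and 5 below.

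Lmo3, the delivered gene, gave no signal that separated the groups. Its intensities were 25, 24 and 24 on rAAV-YFP 1 to 3 and 24, 26 and 24 on rAAV-Lmo3 1 to 3. All but 1 of the rAAV-Lmo3 arrays read the same as 2 of the rAAV-YFP arrays, and the whole range, 0.12 on the log2 scale, was 2 units of intensity. The mean of Lmo3 lay at the 7.32 percentile of all genes, far under the limit of 114 in intensity below which genes were not tested. Which part of the transcript the probe set reads, and whether the delivered sequence holds it, is not given in the sources used here, so this probe set gave no check of the labels. The 250 bases before the annotated start of the mouse gene are shown because they belong to the endogenous copy alone, since the delivered copy had the CBA promoter. They lie at chr6:138581969-138582218 on the minus strand (GRCm38.p6, RefSeq), and capitals mark the matches to the general E-box (CANNTG). Dimers of TAL1 or LYL1 with E proteins bind sites of this class. The inner bases (NN) were left free, so a match is not shown to be a site of these dimers.
Lmo3: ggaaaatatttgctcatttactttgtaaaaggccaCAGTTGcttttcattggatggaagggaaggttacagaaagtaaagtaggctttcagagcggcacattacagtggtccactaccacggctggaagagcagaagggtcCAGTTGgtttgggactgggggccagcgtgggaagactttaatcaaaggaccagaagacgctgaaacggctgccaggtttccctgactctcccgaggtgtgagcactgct
The window of Lmo3 holds 2 E-boxes and no GATAA, the letters most typical of GATA factor sites, on either strand. Of 32851 windows of this length in the table, 66.2% hold an E-box and 22.6% a GATAA.

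**Figure D1:**
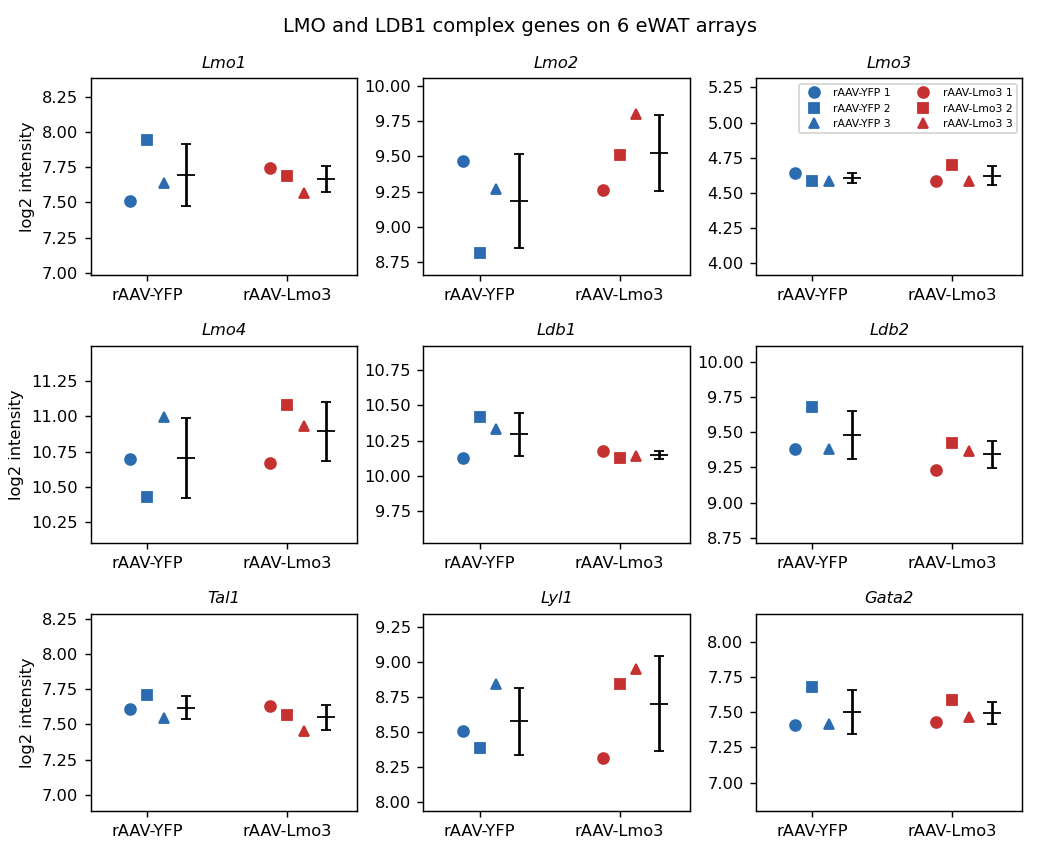
Log2 intensity of the 9 genes on each array (vertical axis, the same span in every panel; blue, rAAV-YFP; red, rAAV-Lmo3; circle, square and triangle, replicates 1, 2 and 3; black, group mean ± SD, n = 3 pools of 2 mice). The groups overlap in every panel, Lmo3 lies flat near 4.6, and Lmo2 spreads the widest.

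Of the other LMO genes, Lmo2 had the largest difference. Lmo2, the bridge between TAL1 and GATA factors in blood and endothelial cells, read 709, 450 and 617 on rAAV-YFP 1 to 3. On rAAV-Lmo3 1 to 3 Lmo2 read 614, 728 and 894. The highest arrays for Lmo2 were rAAV-Lmo3 3 and rAAV-Lmo3 2, but rAAV-Lmo3 1 fell below 2 of the control arrays. The log2 means of Lmo2 were 9.18 ± 0.34 in rAAV-YFP and 9.52 ± 0.27 in rAAV-Lmo3 (SD, n = 3), a difference of 0.34 ± 0.20 (SE) or 1.27-fold, with a 95% interval from -0.15 to 0.83 (limma unadjusted p = 0.141). That difference was larger in size than in 95.8% of all tested genes, and the spread of Lmo2 within groups was wider than in 88.2% of them. Without rAAV-YFP 2, where Lmo2 read lowest, the difference was 0.16, and without rAAV-YFP 1 it was 0.48.

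Lmo4, the LMO gene of widest expression, read 1659, 1374 and 2041 on rAAV-YFP 1 to 3. The readings on rAAV-Lmo3 1 to 3 were 1627, 2169 and 1950. Its groups were interleaved, with rAAV-YFP 3 above rAAV-Lmo3 3. The difference of Lmo4 was 0.19 ± 0.17 (SE, n = 3), with a 95% interval from -0.22 to 0.60, and it moved from 0.05 without rAAV-YFP 2 to 0.33 without rAAV-YFP 3.

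Lmo1, the closest relative of Lmo3 and mainly a neural gene, read 182, 246 and 199 on rAAV-YFP 1 to 3. In the rAAV-Lmo3 group it read 215, 206 and 190. The control array rAAV-YFP 2 was the highest of all and rAAV-YFP 1 the lowest, so the control group enclosed the other. The difference of Lmo1 was -0.03 ± 0.13 (SE, n = 3), with a 95% interval from -0.33 to 0.28, and it moved from -0.12 without rAAV-YFP 1 to 0.10 without rAAV-YFP 2.

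The adaptor genes lay slightly lower in rAAV-Lmo3 without passing the test. Ldb1, the adaptor that binds LIM domains and dimerises, read 1119, 1370 and 1289 on rAAV-YFP 1 to 3. On rAAV-Lmo3 1 to 3 it read 1159, 1115 and 1130. Only rAAV-YFP 1 overlapped with the rAAV-Lmo3 arrays, which stood close together with an SD of 0.03 on the log2 scale against 0.15 in rAAV-YFP. The difference of Ldb1 was -0.15 ± 0.10 (SE, n = 3; limma unadjusted p = 0.175), with a 95% interval from -0.37 to 0.08. Without rAAV-YFP 2 it was -0.08 (unadjusted p = 0.431 by limma). Without rAAV-YFP 1 it was -0.23, with an unadjusted p of 0.0449 and an adjusted p of 0.940 by limma, where the adjusted p over all alternatives lay between 0.831 and 1.

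Ldb2, the paralogue of Ldb1 that endothelial cells express, read 668, 820 and 667 on rAAV-YFP 1 to 3. The rAAV-Lmo3 arrays read 602, 688 and 660. One control array, rAAV-YFP 2, stood above the rest and rAAV-Lmo3 1 below. The difference of Ldb2 was -0.14 ± 0.11 (SE, n = 3), with a 95% interval from -0.40 to 0.13, and it was -0.04 without rAAV-YFP 2, -0.19 without rAAV-YFP 3 and 0.01 without both arrays that stand apart.

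Of the DNA-binding partners, Tal1 and Gata2 had a smaller SD within groups than the median tested gene and Lyl1 a larger one. Tal1, the basic helix-loop-helix factor that founds blood and marks endothelium, read 195, 209 and 187 on rAAV-YFP 1 to 3. On rAAV-Lmo3 1 to 3 it read 198, 190 and 175. The lowest array was rAAV-Lmo3 3 and the highest rAAV-YFP 2, a range of 0.26 on the log2 scale that was narrower than that of most tested genes. The difference of Tal1 was -0.07 ± 0.09 (SE, n = 3), with a 95% interval from -0.28 to 0.14, and it moved from -0.11 without rAAV-Lmo3 1 to -0.02 without rAAV-Lmo3 3.

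Lyl1, the paralogue of Tal1 that is also expressed in myeloid cells, read 363, 334 and 458 on rAAV-YFP 1 to 3. With Lmo3 delivered the readings were 319, 458 and 495. Array rAAV-YFP 3 equalled rAAV-Lmo3 2, and rAAV-Lmo3 1 was the lowest of all. The difference of Lyl1 was 0.13 ± 0.20 (SE, n = 3), with a 95% interval from -0.34 to 0.59, and it moved from 0.0027 without rAAV-Lmo3 3 to 0.32 without rAAV-Lmo3 1.

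Gata2, the zinc-finger factor that binds GATA motifs in the complex, read 170, 205 and 171 on rAAV-YFP 1 to 3. On rAAV-Lmo3 1 to 3 it read 173, 192 and 177. Its lowest and highest arrays were both controls. The difference of Gata2 was -0.01 ± 0.10 (SE, n = 3), with a 95% interval from -0.25 to 0.24, smaller in size than that of all but 4.29% of tested genes, and its sign turned when each array was centred on its median (0.02) or rAAV-YFP 2 was left out (0.08).

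The windows before the starts of Tal1 and Lyl1 are shown because both genes encode the E-box binding arm of the complex but varied unlike each other on these arrays. Capitals mark the E-box as above, the GATA factor letters (GATAA) and the letters of an ETS factor site (CGGAAG), on either strand, and the marked matches lie apart from each other. Tal1 has 2 annotated starts in the table, and the window shown, the one with a match, lies at chr4:115056176-115056425. That of Lyl1 lies at chr8:84701207-84701456, and both are on the plus strand (GRCm38.p6, RefSeq).
Tal1: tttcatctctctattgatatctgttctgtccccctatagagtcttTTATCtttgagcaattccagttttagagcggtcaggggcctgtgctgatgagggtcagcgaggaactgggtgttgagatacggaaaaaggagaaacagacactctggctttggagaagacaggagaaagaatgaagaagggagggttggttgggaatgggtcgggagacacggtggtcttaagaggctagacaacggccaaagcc
Lyl1: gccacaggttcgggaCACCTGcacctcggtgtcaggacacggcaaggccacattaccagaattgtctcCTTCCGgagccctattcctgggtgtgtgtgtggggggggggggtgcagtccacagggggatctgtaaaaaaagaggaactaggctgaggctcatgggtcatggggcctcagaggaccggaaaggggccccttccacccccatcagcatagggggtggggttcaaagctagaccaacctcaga
The window of Tal1 that is shown holds 1 GATAA, read as TTATC on this strand, and the other, at chr4:115057561-115057810, holds 0 matches to the 3 motifs. The window of Lyl1 holds 1 E-box and 1 CGGAAG, read as CTTCCG. Of all windows 13.6% hold a CGGAAG. Starts of 7 of the 9 genes were in the table, with 14 windows in all, of which 2 held a GATAA, 7 an E-box and 2 a CGGAAG. The spaced pair that the complex is known to bind, an E-box followed after 9 to 11 bases by GATA on either strand, was in 0 of the 14 and in 1.34% of all windows.

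**Figure D2:**
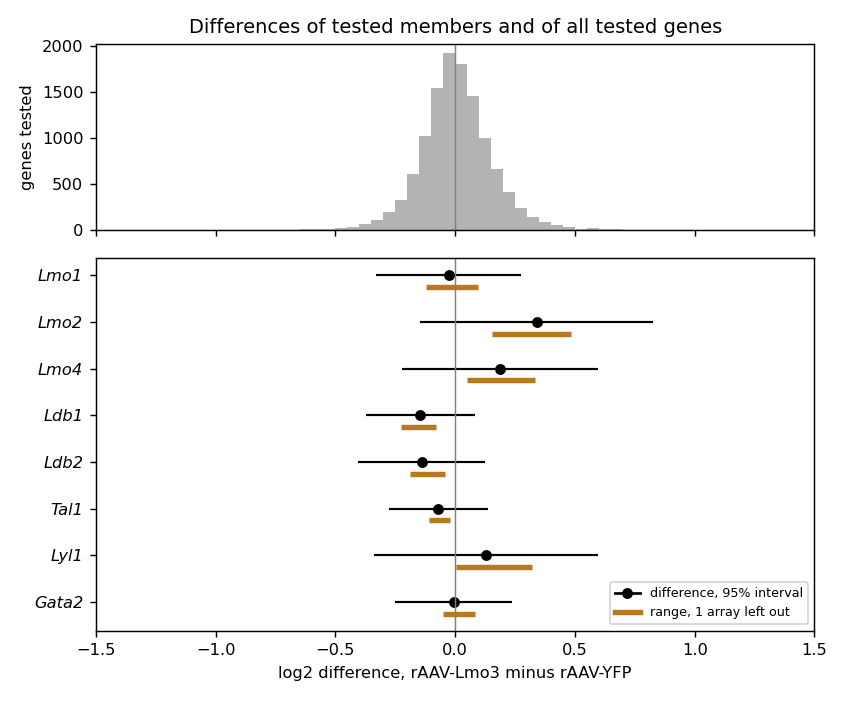
Log2 differences, rAAV-Lmo3 minus rAAV-YFP, of all 11963 tested genes (top, number of genes per bin of 0.05) and of the 8 tested genes of the complex (bottom; point and black line, difference and 95% interval from limma, n = 3 arrays per group; ochre, range when 1 array is left out). Every interval includes 0, and the differences run from -0.15 for Ldb1 to 0.34 for Lmo2.

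After their values were seen, the 8 tested genes were sorted into 2 sets by their lowest or highest readings on single arrays. Lmo2, Lmo4 and Lyl1 had their lowest readings on rAAV-YFP 2 and rAAV-Lmo3 1, the arrays that stood apart. Lmo2 was lower there than in the rest of the group by a log2 difference of -0.56 on rAAV-YFP 2 and -0.39 on rAAV-Lmo3 1. For Lmo4 these values were -0.42 and -0.34, and for Lyl1 -0.29 and -0.58. Lmo1, Ldb1, Ldb2, Tal1 and Gata2 instead had their highest reading on rAAV-YFP 2, by between 0.13 for Tal1 and 0.37 for Lmo1. On rAAV-Lmo3 1 only Lmo1, Ldb1 and Tal1 were higher than the rest of the group, and Ldb2 and Gata2 were lower. Of all tested genes 35.1% were lower than the rest of their group on both of these arrays, and 32.8% were higher on both. By that looser measure 3 of the 8 were lower on both and 3 higher on both. The share of all tested genes that would fall into either set was not counted.

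Measured as the mean absolute distance between log2 profiles centred per gene, over 6 arrays, the nearest pairs among the 8 were Ldb2 with Gata2 (0.07) and Lmo1 with Tal1 (0.07). Lyl1 lay nearer to Lmo4 (0.10) than to its own paralogue Tal1 (0.30), and Lmo2 lay farthest from Lmo1 (0.33). These genes differ in how far they vary, and with 6 arrays many profiles come close. Nearest of all tested genes to Lmo2 were Rtn4 (0.04), Sat1 (0.05) and H2az1 (0.05), with 69 genes within 0.1. The nearest to Lmo4 were Cyb5b, Gpc1 and Galnt18 (0.03 to 0.04; 258 genes within 0.1), and to Lyl1 Cdipt, Nmnat1 and Rab4b (0.03 to 0.05; 193 genes within 0.1).

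Lmo2, Lmo4 and Lyl1 were set together for their low readings on rAAV-YFP 2 and rAAV-Lmo3 1, and markers of several cell types also read low or high on these arrays. Of 12 macrophage markers, all tested, 11 were lower on both rAAV-YFP 2 and rAAV-Lmo3 1, as were Lmo2, Lmo4 and Lyl1. Their summed intensity was 14466 on rAAV-YFP 2 and 16928 on rAAV-Lmo3 1, and between 21884 and 32169 on the other 4 arrays. Between the groups the sums overlapped widely, from 14466 to 32169 in rAAV-YFP and from 16928 to 29687 in rAAV-Lmo3, and 0 of 12 markers passed at the unadjusted level. The differences of 11 of the 12 lay above 0, with a median of 0.13 and the largest for Fcgr1 (0.63 ± 0.30). The exception, Cd163, lay below 0 (-0.22 ± 0.12). Leaving out 1 array moved Fcgr1 between 0.37 and 0.91 and Lyz2, the brightest of these markers, between -0.14 and 0.18. Lmo2, Lmo4 and Lyl1 also lay above 0. None of these genes passed, and they were set together after their values were seen, so no weight is placed on this shared sign. Progenitor and fibroblast markers were lower on both arrays in 6 of 9 cases, with sums of 17526 on rAAV-YFP 2 and 16587 on rAAV-Lmo3 1 and of 21572 to 22842 on the other 4 arrays. Genes of ID proteins were lower on both in 3 of 4 cases. Adipocyte sums were instead highest there (77382 and 74117, against 66459 to 71807), though by count 5 of 9 markers were higher on both arrays and 2 lower on both. Red blood cell sums were also highest there (653 and 693, against 382 to 502), from 3 measured genes of which 2 were tested. The part of these cell types in the readings of Lmo2, Lmo4 and Lyl1 was not tested, and in whole tissue fewer cells of a type and less RNA per cell cannot be told apart. With both of these arrays left out, Lmo2 differed by 0.29, Lmo4 by 0.16 and Lyl1 by 0.22 between the groups, with 2 arrays each.

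**Figure D3:**
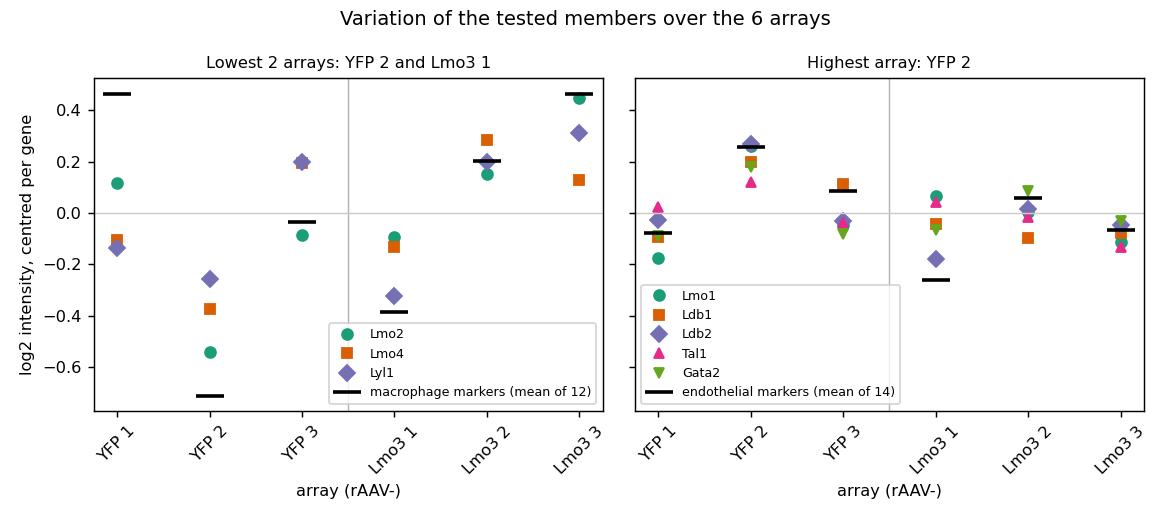
Log2 intensity centred per gene on each array (vertical axis; arrays on the horizontal axis, controls left of the grey line) for Lmo2, Lmo4 and Lyl1 with the mean of 12 macrophage markers (left), and for Lmo1, Ldb1, Ldb2, Tal1 and Gata2 with the mean of 14 endothelial markers (right; black bars, marker means). On the left the lowest readings are on rAAV-YFP 2 and rAAV-Lmo3 1, and on the right the highest is on rAAV-YFP 2.

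Endothelial markers, which matter here because Ldb2, Tal1, Lmo2 and Gata2 are also expressed in endothelium, lay mostly below 0. Of 14 markers, all tested, 12 lay below 0, with a median difference of -0.20 against 0.0008 over all tested genes. Robo4 (-0.46 ± 0.16), Ptprb (-0.37 ± 0.15) and Esam (-0.33 ± 0.13, SE) passed at the unadjusted level, and 0 of 14 after adjustment. At the unadjusted level 2.4% of all tested genes passed lower. The summed intensity of the list ran from 16223 to 20213 in rAAV-YFP and from 13772 to 17570 in rAAV-Lmo3. Its highest and lowest sums were on rAAV-YFP 2 and rAAV-Lmo3 1, the arrays that stood apart. On the other arrays the sums interleaved, with 16223 and 18007 in rAAV-YFP and 17570 and 15940 in rAAV-Lmo3. The highest array of the list, rAAV-YFP 2, was also the highest for Ldb2, Tal1 and Gata2 but the lowest for Lmo2. Its lowest array, rAAV-Lmo3 1, was the lowest for Ldb2, whereas Tal1 read second highest there and Gata2 read lowest on rAAV-YFP 1. The part of endothelial cells in these readings was not tested.

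GATA2 is also a factor of mast cells, and of 9 mast cell markers 5 were bright enough to test, with 4 above 0 and Kit below (-0.30 ± 0.10), the latter past the unadjusted level. Mast cell sums ran from 940 to 1272 in rAAV-YFP and from 916 to 1403 in rAAV-Lmo3, and were lowest on rAAV-Lmo3 2 and rAAV-YFP 2, where Gata2 read highest. The IgE receptor subunits Fcer1a and Ms4a2 read 34.2 and 26 in mean intensity, well under the limit for dim genes. Of 9 tested progenitor and fibroblast markers 7 lay below 0 and 0 passed. All 7 tested mesothelial markers lay below 0 (median -0.37), again with 0 past the unadjusted level. Mesothelial sums ran from 1127 to 2564 in rAAV-YFP and from 1038 to 1442 in rAAV-Lmo3. Only rAAV-YFP 3 (2564) lay above the rAAV-Lmo3 range, and rAAV-YFP 1 and 2 (1127 and 1372) lay within it. Of 6 tested smooth muscle and pericyte markers 5 lay below 0 with 0 passed, and of 9 tested adipocyte markers 6 lay below 0 with 0 passed. Red blood cell, B cell and T cell lists held 2, 1 and 1 tested genes, of which the T cell gene Cd3e (-0.42 ± 0.17) passed at the unadjusted level. The share of all tested genes that passed lower, as Kit and Cd3e did, was 2.4%.

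In the wider set of LDB1 complex proteins no gene passed either. Of 20 such genes 17 were tested and 13 lay below 0, with 0 at the unadjusted level and a median difference of -0.10. The SSBP cofactors that stabilise LDB1 lay on both sides of 0, with Ssbp2 at 0.12 ± 0.11, Ssbp4 at -0.06 ± 0.08 and Ssbp3 at -0.13 ± 0.13. The E proteins that dimerise with TAL1 were at -0.06 ± 0.11 (Tcf4), -0.10 ± 0.12 (Tcf3) and -0.14 ± 0.12 (Tcf12). The smallest p-values were those of the ETO corepressor Cbfa2t3 (-0.28 ± 0.15) and the ETS factors Erg (-0.25 ± 0.14) and Fli1 (-0.18 ± 0.13). Gata1, Gata3 and Tal2 were too dim to test. Gata4 (0.08 ± 0.14) and Gata6 (-0.10 ± 0.20), the other GATA genes of the list, did not pass. Rlim, the ubiquitin ligase that removes LDB proteins, differed by 0.02 ± 0.10.

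Among the ID proteins, which hold E proteins away from TAL1 and LYL1, Id1 lay above the controls by 0.26 ± 0.08 (SE, n = 3; limma unadjusted p = 0.0176, adjusted p = 0.970), with groups that did not overlap. Id2 (0.11 ± 0.30), Id3 (-0.07 ± 0.15) and Id4 (-0.06 ± 0.11) did not pass, so 1 of 4 ID genes lay past the unadjusted level. Over all tested genes 2.27% passed higher at that level, and 4.53% lay higher without overlap. LIM homeodomain factors, the other nuclear LIM proteins that bind LDB1, were mostly dim, with 3 of 11 measured genes tested and 0 passed.

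LIM proteins outside the complex, which mainly serve the cytoskeleton and adhesion sites, lay below 0 in 24 of 33 tested cases with a median of -0.10. At the unadjusted level 3 of 33 passed, all lower, against 2.4% lower over all tested genes, and 0 passed after adjustment. They were Crip2 (-0.57 ± 0.18), the integrin-linked adaptor Lims2 (-0.46 ± 0.14) and the actin-binding Ablim1 (-0.29 ± 0.12). The groups did not overlap for these 3 and for Pdlim1, Pdlim2, Zyx, Limd2 and Lasp1, all lower. Over all tested genes 5.95% lay lower without overlap. The summed intensity of the list was 21252 on rAAV-Lmo3 1, which stood apart, and 23795 to 25849 on the other arrays.

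Genes known as targets of TAL1, GATA2 or LMO2 in vessels and blood lay below 0 in 7 of 10 tested cases, with a median of -0.18. Kit, the stem cell factor receptor, and Esam, an endothelial adhesion protein, were lower at the unadjusted level, and 0 of 10 passed after adjustment. These were 2 of 10, against 2.4% lower over all tested genes. Pecam1, Cdh5, Emcn and Esam of this list are also endothelial markers. The erythroid target Klf1 was too dim to test, and Epb42 was as well. Of 13 tested PPARγ partners and adipogenic factors 9 lay below 0. Pparg (-0.07 ± 0.22) and Ncoa1 (-0.02 ± 0.13), which the study placed beside LMO3, did not pass. Ncoa2, a coactivator of nuclear receptors, was the 1 gene of 13 at the unadjusted level (-0.21 ± 0.08), where 2.4% of all tested genes passed lower. After adjustment 0 passed, and the median of the list was -0.02. The largest difference of the list was that of Ppargc1a, above 0 at 0.45 ± 0.25, which did not pass.

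**Figure D4:**
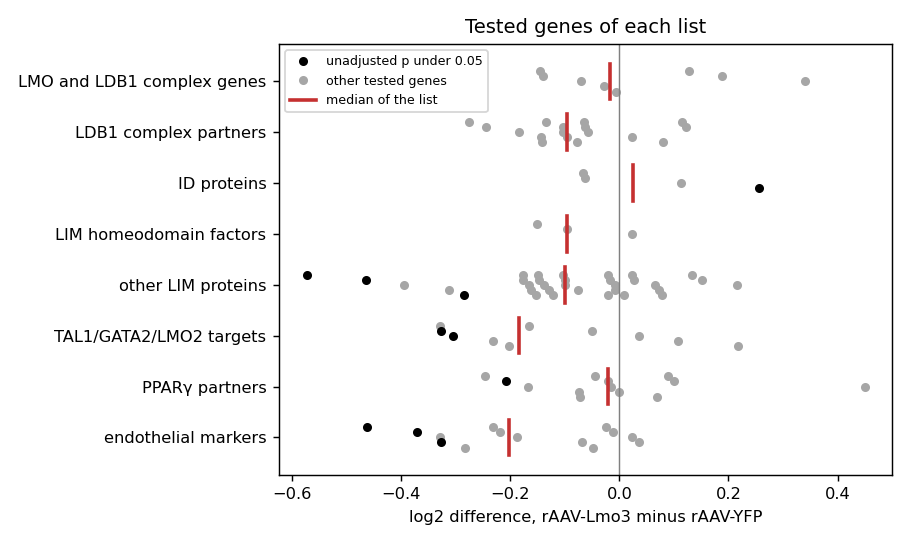
Log2 differences, rAAV-Lmo3 minus rAAV-YFP, of the tested genes of 8 lists (horizontal axis; 1 point per gene; black, unadjusted p under 0.05 by limma; grey, other tested genes; red bar, median of the list; n = 3 arrays per group). The genes of the complex lie on both sides of 0 with a median of -0.02, and of the 8 lists plotted endothelial markers have the lowest median, -0.20. Lists of other cell types are not plotted, and the mesothelial median was lower.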

How the data were processed

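Total RNA of eWAT was labelled with the GeneChip WT PLUS kit and hybridized to Affymetrix mouse Gene ST arrays. The deposited values are intensities per probe set, which the authors summarised by RMA in Affymetrix Expression Console 1.1, as linear, whole-number values, which is coarse for dim genes such as Lmo3. Log2 was taken here. Of 35556 probe sets 21789 had exactly 1 gene symbol in the platform annotation. Each gene was represented by its brightest probe set by mean, and the dimmest 40% (7975 genes, below 6.83 in mean log2 intensity) were left out. The remaining 11963 genes were fitted with limma 3.58.1 in R 4.3.3, calling genes at a Benjamini-Hochberg adjusted p under 0.05. Since the labels describe replicates as pools of mice, a p-value here reflects variation among pools.

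The genes of the complex and all lists were chosen with earlier results of these data known. Of lists other than the complex, up to 3 tested genes with the smallest p and the brightest marker were to be named. Ssbp2, Ssbp3, Ssbp4, Tcf3, Tcf4, Tcf12, Gata4, Gata6, Rlim, Id2, Pparg and Ncoa1 fall outside this rule. So do Pdlim1, Pdlim2, Zyx, Limd2, Lasp1, the genes named as too dim to test and those named as shared between lists. All of these were named for their known role or after their values were seen. Alternatives covered normalization, test, filter, probe set choice, a replicate block and leaving out arrays, and the fit was tested on simulated data. No batch or scan date is given in the labels.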

Additional observations from a re-analysis of the deposited data

How the results depend on the processing

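No gene of the complex passed after adjustment, and 0 genes of any kind were called after adjustment, under any of the 16 alternatives. Leaving out 1 array gave 0 to 1 genes of the complex at the unadjusted level, the 1 being Ldb1 without rAAV-YFP 1. For all genes at the unadjusted level (558) the count ran from 263 without rAAV-YFP 2 to 684 without rAAV-YFP 3, and was 283 without rAAV-Lmo3 3 and 840 with no filter on dim genes, where 19938 genes were tested. Centring each array on its median turned the split of these genes from 271 higher and 287 lower to 317 and 216, and without rAAV-YFP 1 it was 167 and 339.

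The sign of Gata2 turned under median centring (0.0165), a second quantile normalization (0.0103), array weights (0.0585) and without both arrays that stand apart (0.11), an alternative chosen after seeing the data, which also turned Lmo1 (0.0560) and Ldb2 (0.0137). Leaving out 1 array moved Gata2 between -0.0529 and 0.0821 and Lmo1 between -0.12 and 0.10. The cause of these turns was not tested. Lmo2, Lmo4, Lyl1, Ldb1 and Tal1 kept their sign under all alternatives that could be run. Same-numbered arrays did not deviate together (correlations of -0.55, -0.40 and 0.26), and with a replicate block 453 genes passed at the unadjusted level, with 0 of the complex and Lmo2 at 0.34 ± 0.21. The methods' t-test gave 555 genes at the unadjusted level and 0 after Benjamini-Hochberg adjustment. With the dimmest 60% left out Lmo1, Tal1 and Gata2 were not tested.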
